A study of Mus musculus with 4 samples.

Results

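Complement is a set of plasma and membrane proteins that tag and lyse targets and recruit leukocytes. C1qa, C1qb and C1qc encode the 3 chains of C1q, which binds antibody and dying cells and starts the classical pathway. C4b encodes C4, which is cleaved next, and C3 encodes the component on which the classical, lectin and alternative pathways meet. Cfb encodes factor B, the protease of the alternative pathway, and Serping1 encodes the C1 inhibitor, which blocks the proteases attached to C1q. C3ar1 and C5ar1 encode the receptors of the fragments C3a and C5a. In tissue, macrophages are a well-known source of C1q, and fibroblasts can make C3, C4 and the C1 inhibitor. These 9 genes were chosen by symbol, and all 9 were found among the 32285 genes of the deposited matrices.

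The genes were followed in tumours grown from Pan02, a mouse pancreatic cancer line, under the skin of female C57BL/6 mice aged 6 to 7 weeks, so the tumours lay outside the pancreas. Mice were grouped when tumours were near 50 mm3 and were injected 3 times a week. The control group received IgG, the anti-LIF group an antibody against leukaemia inhibitory factor, the anti-PD-1 group 200 µg of an antibody against the PD-1 receptor, and the combo group both antibodies. The protocol pairs anti-PD-1 with IgG or anti-LIF at 25 mg/kg and gives no separate dose for the groups without anti-PD-1. Each group is 1 single-cell RNA library in which 3 samples were combined, so no animal can be told from another and no group has a replicate. No p-value is therefore given. Intervals are exact 95% intervals and cover the counting of molecules or cells in these libraries, not the spread between mice. A difference of 2-fold or more was the size counted.

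After filtering, 63443 cells remained, 14014 to 18640 per library, with median depths of 1674.5 to 2288 UMIs (unique molecular identifiers, 1 per captured RNA molecule). Marker genes, none of them a complement gene, placed 48033 cells in a class, and the other 24.3% stayed without one. Levels are CPM, the UMIs of a gene summed over a class and scaled to the total of that class. The labels give the Pan02 cancer cell as the cell type, but the cancer cell class made up only 27.02, 17.1, 12.5 and 13.1% of kept cells (control first, then anti-PD-1, anti-LIF, combo), and the others were host cells or without a class. Xist, an RNA of the inactive X chromosome of female cells, was at 2.89 CPM in the cancer cell class, against 127 in fibroblasts and 129.5 in macrophages. All 158 cells of a host gland class were in the combo library, and any 2 libraries shared 277 to 392 barcodes. Below, runs of 4 values are given in the order control, anti-PD-1, anti-LIF, combo, and runs of 3 are the treated libraries in that order. T cells served as the background class, in which free RNA from other cells can be read. Their median depth was 1146 to 1503 UMIs, against 4875 to 10825 in cancer cells. CPM were not adjusted for this, so a level under the T cell CPM does not by itself show background.

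The genes of the 3 C1q chains lie side by side on chromosome 4 (GRCm38, all 9 genes on the minus strand), C1qb at 136880129 to 136886187, C1qc at 136889804 to 136893065 and C1qa at 136895917 to 136898803. C4b (34728380 to 34743882), Cfb (34856374 to 34862518) and C3 (57203970 to 57228136) lie on chromosome 17. Serping1 lies on chromosome 2 (84765387 to 84775444), C3ar1 on chromosome 6 (122847138 to 122856161) and C5ar1 on chromosome 7 (16246743 to 16259540). RefSeq promoter windows of GRCm38.p6, from 250 bases before to 50 after a gene's start, matched 5 of the 9 genes, namely C1qb, C1qc, C3, C3ar1 and C5ar1. The windows of C1qb (chr4:136886151-136886450), C1qc (chr4:136892865-136893164), C3 (chr17:57228087-57228386) and C3ar1 (chr6:122856108-122856407) are printed 5′ to 3′ on the gene's strand. C1qb and C1qc are shown as the pair whose levels followed each other most closely, C3 as the gene with the most UMIs, and C3ar1 as a receptor that was lower in control macrophages. Capitals mark motif matches.
C1qb: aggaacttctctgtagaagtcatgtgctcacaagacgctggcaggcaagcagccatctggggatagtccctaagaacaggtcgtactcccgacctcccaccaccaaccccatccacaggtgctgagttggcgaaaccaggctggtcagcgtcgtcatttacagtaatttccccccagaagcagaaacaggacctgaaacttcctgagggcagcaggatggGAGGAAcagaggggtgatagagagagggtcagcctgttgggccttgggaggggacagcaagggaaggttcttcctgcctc
C1qc: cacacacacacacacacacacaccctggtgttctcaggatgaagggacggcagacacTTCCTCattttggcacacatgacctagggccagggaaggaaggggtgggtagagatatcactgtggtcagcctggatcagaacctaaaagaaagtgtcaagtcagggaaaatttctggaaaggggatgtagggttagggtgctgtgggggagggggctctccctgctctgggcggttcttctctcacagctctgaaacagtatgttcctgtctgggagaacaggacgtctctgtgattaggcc
C3: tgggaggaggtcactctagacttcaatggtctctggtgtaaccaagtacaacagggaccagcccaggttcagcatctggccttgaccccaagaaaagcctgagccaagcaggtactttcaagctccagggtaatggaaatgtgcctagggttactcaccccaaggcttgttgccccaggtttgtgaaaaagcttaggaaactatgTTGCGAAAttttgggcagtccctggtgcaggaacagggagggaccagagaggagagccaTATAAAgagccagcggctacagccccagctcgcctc
C3ar1: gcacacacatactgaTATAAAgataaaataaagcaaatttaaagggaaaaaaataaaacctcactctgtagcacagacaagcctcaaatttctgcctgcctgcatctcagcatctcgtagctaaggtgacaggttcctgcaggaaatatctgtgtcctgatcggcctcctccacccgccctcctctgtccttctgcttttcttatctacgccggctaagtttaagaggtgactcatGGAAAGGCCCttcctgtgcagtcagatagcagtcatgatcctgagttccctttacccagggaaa

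A set of 5 motifs was searched on both strands of each window. GAGGAA, the core bound by the myeloid factor PU.1, stood in the C1qb window 30 bases before the start site, and in the C1qc window as its reverse complement TTCCTC, 193 bases before. It was in 28.3% of all 32851 windows of 300 bases. The C3 window held TTGCGAAA, a match to the C/EBP motif TTGCNNAA (10.8% of windows), 45 bases before the start site, and the TATA box TATAAA 15 bases after the annotated start. TATAAA was in 13.6% of windows and also stood in the C3ar1 window, 235 bases before the start. The C3ar1 window further held GGAAAGGCCC, on the opposite strand a match to the NF-kB motif (GGG, any 2 bases, TTTCC), which 1.63% of windows held. The interferon motif TTCNNNGAA (8.30% of windows) was in none of the 5, and the C5ar1 window held none of these motifs. A match describes letters only.

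By class, the 9 genes fell into 3 patterns. The C1q chains and C3ar1 were highest in macrophages in every library, and C5ar1 was highest in neutrophils, with macrophages next. C3, C4b, Cfb and Serping1 were highest in fibroblasts, except that Cfb in anti-LIF was higher in the pericyte class. That class held C3 at 1112 to 2348 CPM and Cfb at 259.6 to 730.0, but its cells carried a median of 2 pericyte and 4 fibroblast markers, so its values are given only where needed and no result rests on them.

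**Figure D1:**
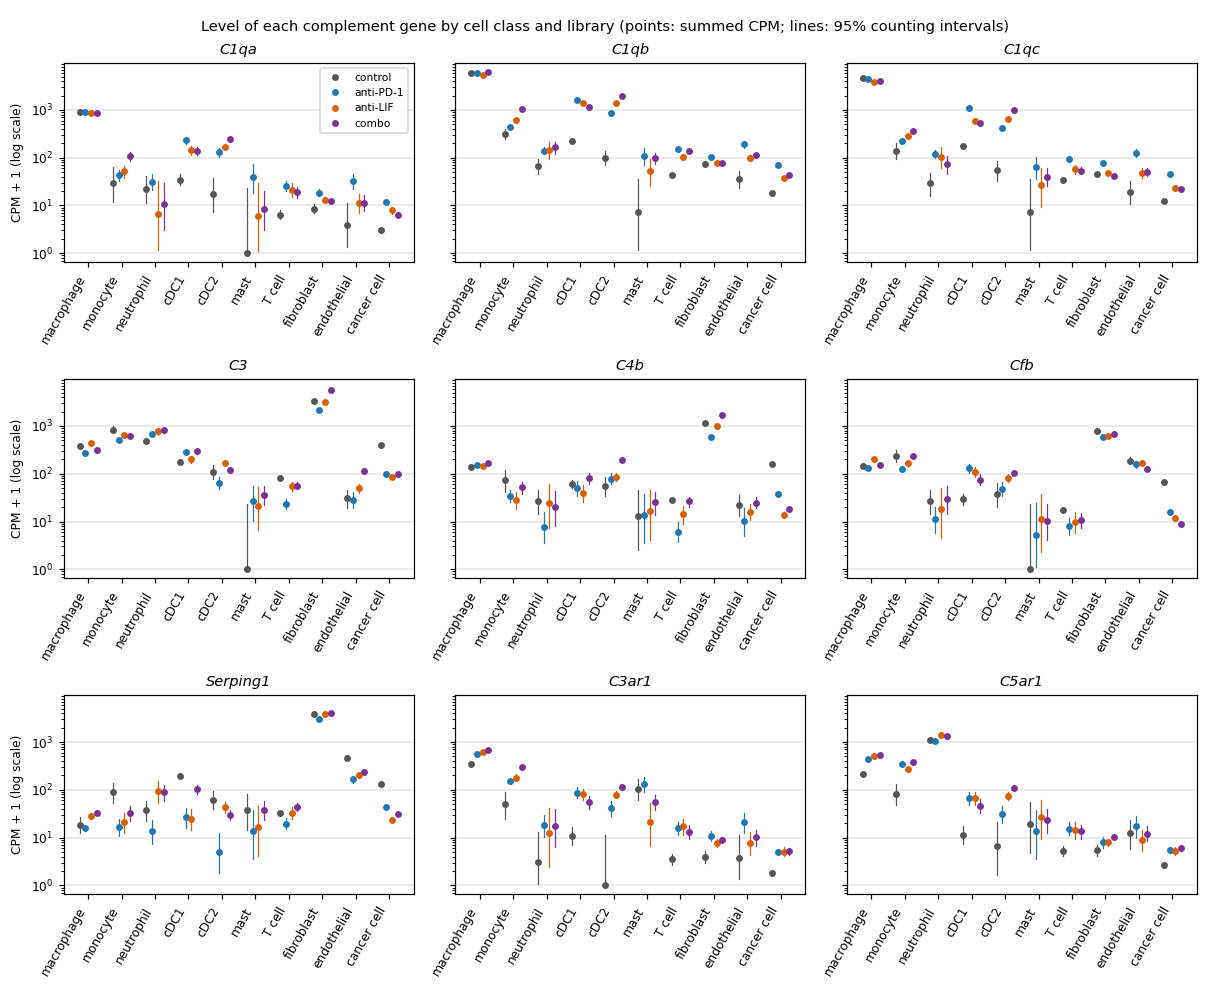
CPM + 1 (log axis) of each of the 9 genes in 10 cell classes, with 1 point per library and 95% counting intervals as vertical lines; cDC1 and cDC2 are conventional dendritic cells of type 1 and type 2. Among these classes the C1q chains were highest in macrophages, C5ar1 in neutrophils, and C3, C4b, Cfb and Serping1 in fibroblasts, in all 4 libraries.

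C1q was abundant in macrophages and nearly level between libraries. C1qb, the B chain, stood at 6059, 6041, 5377 and 6131 CPM. C1qc, the C chain, stood at 4567, 4484, 3880.5 and 4045 CPM, and C1qa, the A chain, at 902, 886, 844 and 866 CPM. The highest library lay 1.07-fold above the lowest for C1qa, 1.14-fold for C1qb and 1.18-fold for C1qc. Of the 9 comparisons of a chain in a treated library with control, the widest was C1qc in anti-LIF (log2 ratio -0.24, -0.27 to -0.20). Counts from a 3' kit are not scaled by transcript length, so the level of 1 gene is not set against that of another.

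In single macrophages, a UMI of any C1q chain was found in 97.9, 96.4, 93.2 and 94.5% of cells. Here and below, cells with 1000 UMIs or more were thinned to 1000, and cells with fewer were left out of thinned shares. This puts cells of unequal depth on 1 footing, but covers only the deeper cells of each class and library. The thinned shares were 97.2, 94.9, 91.1 and 91.5%. All 3 chains together were found in 55.1, 51.8, 48.2 and 49.4% of thinned macrophages and in 0.14, 0.79, 0.16 and 0.37% of thinned T cells. Any chain was found in 1.79, 17.7, 12.7 and 11.98% of thinned T cells, so the background of single C1q molecules was lowest in control.

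Over whole libraries the picture differed. C1qb stood at 152, 1230.2, 1203 and 1325 CPM of all kept cells, lowest in control, although the level within macrophages was nearly the same. Macrophages numbered 337, 2564, 2339 and 2549, or 1.81, 17.8, 16.7 and 15.5% of kept cells. T cells numbered 6183, 1602, 1082 and 1384, and their C1qb level was 43.2, 148, 103 and 139 CPM. Macrophages held 58.6, 74.3, 64.04 and 63.2% of all C1qb UMIs.

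Macrophages were not alike among themselves. They were divided into clusters made without complement genes. In cluster 5, led by Ms4a7, Trem2 and Apoe, C1qb stood at 7105 CPM over all libraries, and in cluster 14, led by Lyve1, Cd163 and Cd209f, at 6987. Macrophages of cluster 7, led by Chil3, Ccl24 and Arg1, held 3232 CPM. The 47 macrophages of cluster 28, led by the osteoclast genes Ctsk, Ocstamp and Acp5, held C1qb at 161, 186, 50.4 and 885 CPM, 387 over all libraries and 164 without the 10 combo cells. Their C1qa was 22.1 CPM, against 5.42 to 24.5 CPM of C1qa in T cells.

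Monocytes, 87.8% of them in cluster 7, carried C1qb at 319, 448, 600.4 and 1045 CPM, lowest in control. Conventional dendritic cells of type 1 carried 221, 1633, 1372 and 1174 CPM and those of type 2 97.5, 876, 1366 and 1927 CPM. These classes lay in different clusters by library. The dendritic cluster, 15, held 86.05, 60.7, 50.4 and 57.04% of type 1 and 88.2, 76.2, 58.4 and 53.9% of type 2 cells. Most others lay in clusters that also held macrophages. Among them, cluster 17 held 0.39, 1.48, 18.4 and 19.3% of type 1 and 0, 4.86, 15.5 and 14.2% of type 2 cells. Its C1qb over all libraries was 2995 CPM in type 1 and 2978 in type 2 cells. Cluster 5 held 4.65, 18.5, 2.13 and 2.96% of type 1 cells and cluster 14 0, 4.32, 5.90 and 14.2% of type 2 cells. Within cluster 15, C1qb stood at 58.5, 91.8, 64.3 and 33.7 CPM in type 1 cells, below the T cell level in each treated library, and at 52.4, 420.5, 134 and 186 CPM in type 2 cells.

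Unlike C1q, the receptors in macrophages were lower in control than in every treated library. C5ar1, the receptor of C5a, stood at 215, 436, 518 and 535 CPM, from 328 UMIs in control. Against control it was 2.02-fold higher in anti-PD-1 (log2 ratio 1.02, 0.86 to 1.18), 2.40-fold in anti-LIF (1.26, 1.10 to 1.43) and 2.48-fold in combo (1.31, 1.15 to 1.48). C3ar1, the receptor of C3a, stood at 349.9, 562, 615 and 690.3 CPM, from 533 UMIs in control. Its log2 ratios were 0.68 (0.56 to 0.81) in anti-PD-1, 0.81 (0.68 to 0.95) in anti-LIF and 0.98 (0.85 to 1.11) in combo, each under 2-fold. The 3 ratios of a gene share the control library and its 337 macrophages.

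Of the 9 genes C5ar1 alone was 2-fold or more higher in macrophages, in each of the 3 comparisons. Among all genes measured there, 7.93, 10.4 and 10.6% were, and a count of 1 of 9 is close to these shares. The median log2 ratio of all genes was 0.11, 0.11 and 0.09, and with it subtracted C5ar1 was under 2-fold in anti-PD-1. In macrophages thinned to 1000 UMIs, a C5ar1 UMI was found in 19.9, 32.6, 38.5 and 38.2% of cells and a C3ar1 UMI in 27.4, 39.8, 42.5 and 45.9%. Without thinning the shares were 48.1, 57.7, 60.6 and 68.1% and 58.5, 64.98, 64.8 and 73.9%. Thinned T cells held at most 1.57% for C5ar1 and 1.41% for C3ar1. Both receptors together were found in 7.17, 15.03, 18.2 and 19.7% of thinned macrophages.

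**Figure D2:**
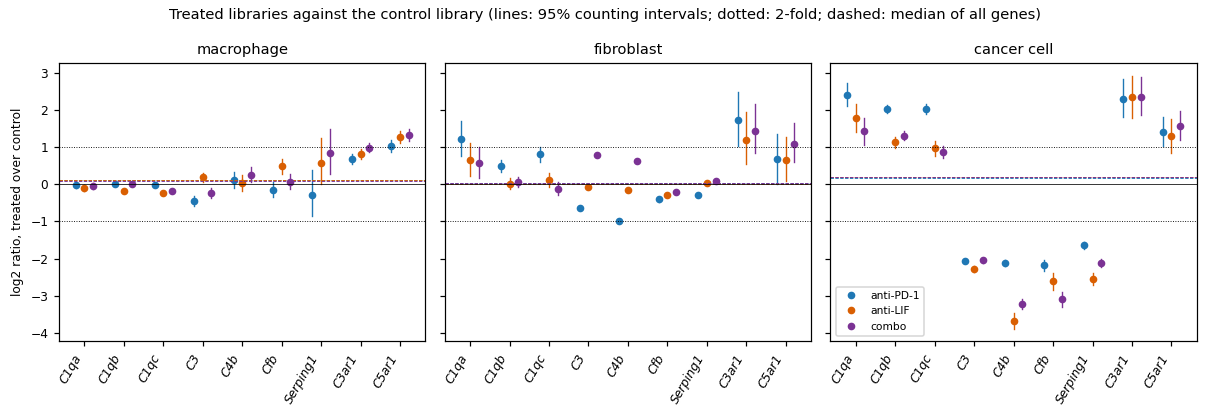
Log2 ratio of each gene in the anti-PD-1, anti-LIF and combo libraries over control, in macrophages, fibroblasts and cancer cells, with 95% counting intervals; dotted lines mark 2-fold and dashed lines the median of all genes. C3, C4b, Cfb and Serping1 lay below -1 in cancer cells in all 3 comparisons, and C5ar1 lay above 1 in macrophages.

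The clusters of macrophages were shared out unequally between libraries. Cluster 5 held 68.8, 54.99, 30.6 and 35.3% of them and cluster 14 2.08, 6.59, 15.9 and 15.6%. Within cluster 5, which held 232 of the 337 control macrophages, C5ar1 stood at 255, 436, 526 and 583 CPM and C3ar1 at 412, 628, 699 and 827 CPM, so both were again lowest in control. There the C5ar1 log2 ratio in anti-PD-1 was 0.77 (0.59 to 0.97), under 2-fold. In cluster 8, with 43 control cells and 27 control UMIs of C5ar1, the intervals of its ratio included 0 in anti-PD-1 (0.24, -0.30 to 0.89) and combo (0.40, -0.15 to 1.04). In cluster 14 C5ar1 stood at 694 to 713 CPM in the treated libraries, and the 7 control cells there held 54 of the 533 control C3ar1 UMIs, 2286 CPM, above the treated libraries.

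The 8 macrophage markers used for the class summed to 4205, 5532, 5530.1 and 5973 CPM in macrophages, the 6 monocyte markers to 228, 373, 528 and 550.3 and the 10 T cell markers to 286, 70.6, 62.8 and 46.6. Of these, Chil3 was at 0 in control. The part of these differences in the receptor levels was not tested. Monocytes showed lower receptor levels in control too, on few molecules, with C5ar1 at 82.1, 338, 269.5 and 379.6 CPM (17 UMIs in control) and C3ar1 at 48.3, 149.7, 179.7 and 304 CPM (10 UMIs in control).

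**Figure D3:**
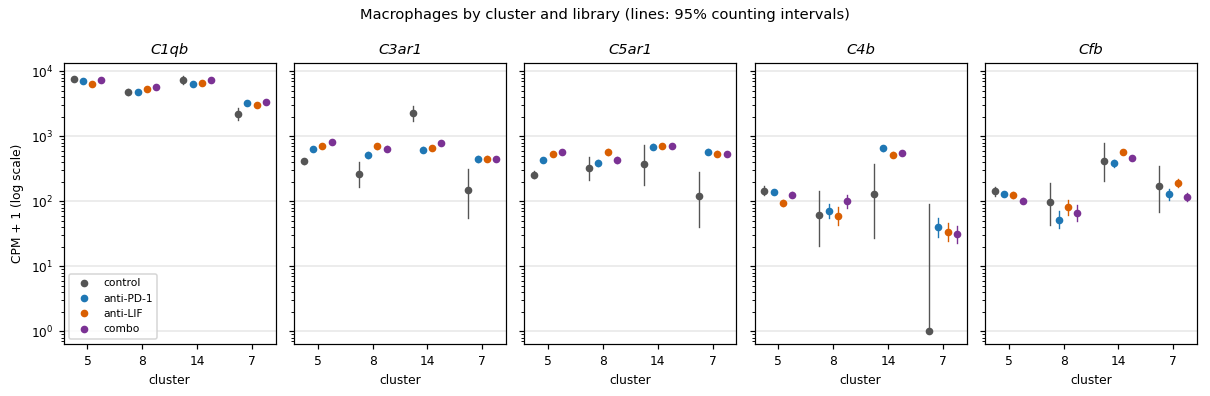
CPM + 1 (log axis) of C1qb, C3ar1, C5ar1, C4b and Cfb in macrophages of clusters 5, 8, 14 and 7 by library, with 95% counting intervals. In cluster 5 both receptors were lowest in control, and in cluster 14 C4b and Cfb were higher than in cluster 5 in each treated library; control had 7 cells in cluster 14.

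Neutrophils held the highest C5ar1, 1092, 1035, 1399.6 and 1309 CPM. Over the class the log2 ratios were -0.08 (-0.24 to 0.08) in anti-PD-1, 0.36 (0.13 to 0.58) in anti-LIF and 0.26 (0.07 to 0.45) in combo. The class lay in different clusters by library, however. Cluster 29, led by the granule genes Ngp, Camp and Ltf of immature neutrophils, held 0, 21.5, 17.8 and 3.47% of it, and cluster 13 nearly all other cells. Within cluster 13 C5ar1 stood at 1092, 1483, 1589.9 and 1480.4 CPM, lowest in control, with log2 ratios of 0.44 (0.27 to 0.61), 0.54 (0.29 to 0.78) and 0.44 (0.24 to 0.63), each under 2-fold. Neutrophils held 36.4, 12.4, 3.71 and 3.73% of all C5ar1 UMIs, and macrophages 23.4, 57.9, 60.8 and 60.8%. By molecules the main site of the gene was thus the neutrophil in control and the macrophage in the others. These shares follow cell numbers as well as levels: neutrophils numbered 450, 564, 174 and 288 and macrophages 337, 2564, 2339 and 2549. By CPM, C5ar1 was higher in neutrophils in every library. C3ar1 in neutrophils was at 2.14 to 17.02 CPM, against 2.51 to 16.2 in T cells. Neutrophils also carried C3, at 493, 663, 769 and 809 CPM over the class. Within cluster 13 it stood at 493, 357, 651 and 744 CPM, lowest in anti-PD-1, and the neutrophils of cluster 29 held 1049, 1129 and 1212 CPM in the treated libraries, the last from 10 cells. The 8 neutrophil markers summed to 48690.4, 152638, 111669 and 75186 CPM in the class, and their part in these levels was not tested.

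Mast cells carried C3ar1 at 104, 130.5, 20.6 and 54.04 CPM, from 17, 31, 4 and 29 UMIs. The 10 cells with the most held 76.5, 61.3, 100.0 and 62.1% of them.

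**Figure D4:**
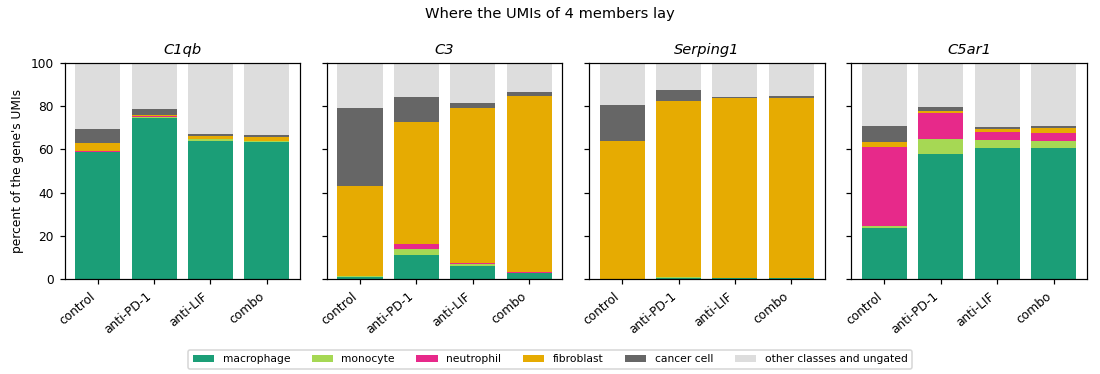
Percent of all UMIs of C1qb, C3, Serping1 and C5ar1 in each library that lay in the named classes, with the remaining classes and cells without a class in light grey. Cancer cells held 36.3% of C3 UMIs in control and 1.73% in combo, and macrophages held 58.6, 74.3, 64.04 and 63.2% of C1qb UMIs in the order of the libraries.

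Fibroblasts held more of the C3, C4b, Cfb and Serping1 molecules of each treated library than any other class. Their share was 41.6, 56.7, 71.8 and 81.7% of C3, 37.7, 47.96, 74.1 and 76.7% of C4b, 46.2, 51.9, 60.3 and 66.2% of Cfb and 63.97, 81.7, 83.3 and 83.3% of Serping1 UMIs. Cancer cells held 36.3, 11.2, 2.42 and 1.73% of C3 and 38.9, 13.6, 1.18 and 0.96% of C4b UMIs, so in control they were a second source, and for C4b one as large as the fibroblasts. These shares follow cell numbers as well as levels: fibroblasts numbered 1266, 1271, 2941 and 3377 and cancer cells 5036, 2461, 1751 and 2155.

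Within fibroblasts C3 stood at 3335, 2134, 3152 and 5709 CPM. C4b had the same order of libraries, at 1135, 575, 1013 and 1737 CPM. Cfb was more level, at 769, 579.9, 627 and 667 CPM, and so was Serping1, at 3779.9, 3104, 3837 and 4023 CPM. Over the whole class anti-PD-1 was the lowest library for all 4 genes, and combo the highest for C3, C4b and Serping1. Within the fibroblast clusters given below, the order of libraries differed for Cfb and Serping1. In T cells C3 was at 22.6 to 79.3 CPM and Serping1 at 18.7 to 42.8. C4b has a near-identical neighbour, C4a, and how reads of the pair were assigned is not given in the sources used here, so the C4b level is uncertain.

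Against control, no ratio of these 4 genes over the whole fibroblast class reached 2-fold. C3 was 1.56-fold lower in anti-PD-1 (log2 ratio -0.64, -0.67 to -0.61) and 1.71-fold higher in combo (0.78, 0.76 to 0.79), and C4b was 1.97-fold lower and 1.53-fold higher. Against anti-PD-1, combo fibroblasts held 2.68-fold more C3 (1.42, 1.39 to 1.45) and 3.02-fold more C4b (1.59, 1.55 to 1.64). Against anti-LIF, they held 1.81-fold more C3 and 1.71-fold more C4b. The median log2 ratio of all genes to control was 0.03, 0.02 and 0.04. Of the fibroblast class, 14.6, 8.34, 0.20 and 0.24% lay in cluster 4, a cancer cell cluster by its markers. Without them the log2 ratios to control were -0.79, -0.39 and 0.47 for C3 and -1.12, -0.48 and 0.30 for C4b, so C4b was then past 2-fold lower in anti-PD-1 and the gap between combo and control was smaller.

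Of the 9 genes, 2 (C1qa and C3ar1) were 2-fold or more apart from control in anti-PD-1 fibroblasts, 1 (C3ar1) in anti-LIF and 2 (C3ar1 and C5ar1) in combo, where 10.9, 15.7 and 15.9% of all measured genes were. These 3 genes stood at 2.93 to 17.7 CPM in fibroblasts and at 2.51 to 24.5 in T cells. In combo against anti-PD-1, 2 genes (C3 and C4b) were 2-fold or more apart, with 10.6% of all genes, and in combo against anti-LIF 0, with 5.86%. All 4 of C3, C4b, Cfb and Serping1 together were found in 24.1, 12.9, 19.7 and 26.8% of fibroblasts thinned to 1000 UMIs.

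The fibroblasts lay in 2 main clusters with different complement levels. Cluster 6, led by Sfrp4, Mmp3, Ptx3 and Cxcl12, held C3 at 7285, 5685, 5942 and 10568 CPM. Cluster 1, led by the matrix genes Postn, Cthrc1 and Lrrc15, held 811, 732, 1129 and 722 CPM. C4b stood at 2453, 1436, 1885 and 3078 CPM in cluster 6 and 319, 256, 381 and 361 in cluster 1, and Cfb at 1577, 1261, 1095 and 1092 against 299, 339, 289 and 233 CPM. Serping1 stood at 6722, 5952, 5369.7 and 6221 CPM in cluster 6 and 3190.2, 2321, 2750 and 1794 in cluster 1. The lowest library of cluster 6 lay above the highest of cluster 1 for each of these 4 genes. Unlike in the whole class, Serping1 was highest in control in both clusters, and Cfb was highest in anti-PD-1 in cluster 1.

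Cluster 6 made up 41.9, 24.1, 33.5 and 44.8% of fibroblasts and cluster 1 39.1, 64.3, 64.7 and 51.1%. Within cluster 6, combo held more C3 than control (log2 ratio 0.54, 0.52 to 0.56) and than anti-PD-1 (0.89, 0.87 to 0.92). Within cluster 1, combo and anti-PD-1 were level for C3 (-0.02, -0.08 to 0.04), and combo was slightly below control (-0.17, -0.24 to -0.10). The high C3 of combo was thus measured in cluster 6 and not in cluster 1.

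Cancer cells held far more C3, C4b, Cfb and Serping1 in control than in any treated library. C3 stood at 400.0, 96.1, 83.3 and 96.7 CPM, from 23823, 2764, 1341 and 2671 UMIs. C4b stood at 161, 37.2, 12.7 and 17.5 CPM, Cfb at 66.1, 14.7, 10.8 and 7.79 and Serping1 at 133, 42.5, 22.7 and 30.7. Control was the highest library for all 4 genes. C3 was 4.16-fold lower than control in anti-PD-1 (log2 ratio -2.06, -2.12 to -2.00), 4.80-fold in anti-LIF (-2.26, -2.34 to -2.18) and 4.13-fold in combo (-2.05, -2.11 to -1.99). C4b was 4.33, 12.7 and 9.22-fold lower, Cfb 4.49, 6.10 and 8.47-fold and Serping1 3.12, 5.83 and 4.32-fold. The median log2 ratio of all genes in this class was 0.18, 0.20 and 0.19, above 0.

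These 4 of the 9 genes were 2-fold or more lower in each comparison, while 4.45, 8.35 and 7.88% of all genes measured in cancer cells were. The 3 comparisons share the control library. Some treated values were under the T cell level. T cells held C4b at 27.5, 5.06, 13.05 and 25.3 CPM, Cfb at 16.7, 7.01, 8.70 and 9.73 and Serping1 at 32.1, 18.7, 31.7 and 42.8. In anti-LIF and combo the cancer cell levels of C4b and Serping1, and in combo that of Cfb, were under the T cell level. C3 was above the T cell level, 79.3, 22.6, 53.4 and 54.9 CPM, in each library.

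The other 5 genes, the C1q chains and the receptors, stood at 0.81 to 69.3 CPM in cancer cells. This was below the T cell level of the same gene in every library, so they were not told apart from background. They were 1.83- to 5.31-fold higher than control, and 5 of them with anti-PD-1, 4 with anti-LIF and 4 with both antibodies were 2-fold or more higher, where 8.13, 11.5 and 9.31% of all genes were. With cells thinned to 1000 UMIs, a C3 UMI was found in 22.6, 7.17, 6.02 and 9.37% of cancer cells and 3.51, 0.79, 3.29 and 5.52% of T cells. Without thinning the shares were 45.4, 18.4, 18.9 and 31.6% and 5.94, 2.68, 5.08 and 9.10%, at median depths of 10825, 7779, 4875 and 8071 UMIs in cancer cells and 1503, 1245, 1146 and 1500.5 in T cells.

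Within cancer cells the genes were spread unevenly over clusters, and the clusters over libraries. Cluster 4, led by Enpp2, Ereg, Ptn and Il11, made up 36.2, 15.6, 4.45 and 6.96% of cancer cells. Its C3 stood at 797, 322, 734 and 324 CPM, the highest of the 4 main clusters in each library, with 78 cells in anti-LIF. In cluster 3, led by Acta2, Ankrd1 and Syt13, C3 stood at 134, 39.2, 102 and 135 CPM, and in cluster 0, led by Dcpp1, Prl2c2 and Dynap, at 103, 49.8, 66.3 and 83.9 CPM. Cluster 12, led by Prl2c2, Prl2c3 and Dynap, held 37.8, 19.1, 15.5 and 23.8 CPM and made up 6.27, 12.1, 35.3 and 28.1% of cancer cells. The cluster richest in C3 was thus a larger part of the cancer cells in control, and the poorest a larger part in the treated libraries.

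Inside clusters 3 and 4 the C3 ratios to control were closer to 0 than in the whole class. In cluster 3 the C3 log2 ratio was -1.78 (-1.90 to -1.65) in anti-PD-1, -0.39 (-0.53 to -0.25) in anti-LIF and 0.01 (-0.09 to 0.10) in combo. In cluster 4 it was -1.31 (-1.38 to -1.23) in anti-PD-1, -0.12 (-0.25 to 0.01) in anti-LIF and -1.30 (-1.41 to -1.19) in combo. In anti-LIF the C3 ratio was under 2-fold within both clusters, and in combo within cluster 3.

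The other 3 genes were lower than control within clusters 3 and 4. In cluster 3 the log2 ratios were -1.34, -2.17 and -1.86 for C4b, -2.13, -1.22 and -1.93 for Cfb and -1.73, -1.96 and -1.56 for Serping1. In cluster 4 they were -1.54, -2.46 and -2.30 for C4b, -1.72, -1.62 and -3.45 for Cfb and -0.78, -1.79 and -1.31 for Serping1. All of these ratios but that of Serping1 in cluster 4 of anti-PD-1 were past 2-fold. In cluster 3, C4b and Cfb in combo (19.4 and 9.56 CPM) were under the T cell level. So was Serping1 there in anti-LIF and combo (30.8 and 40.8 CPM), so the sizes of these ratios of cluster 3 are uncertain.

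Clusters 0 and 12 together held most cancer cells of anti-LIF and combo. There C4b stood at 24.96, 8.64, 14.1 and 23.3 CPM in cluster 0 and 8.18, 2.88, 4.95 and 6.76 in cluster 12, and its log2 ratios were -1.49, -0.80 and -0.10 in cluster 0 and -1.48, -0.73 and -0.29 in cluster 12, under 2-fold in anti-LIF and combo. Cfb ratios were -1.41, -0.82 and -0.40 in cluster 0, from 8 to 23 UMIs a library, and -1.28, -1.17 and -1.18 in cluster 12. C3 ratios were -1.04, -0.63 and -0.30 and -0.98, -1.28 and -0.67, and in cluster 0 the combo interval included 0 (-0.30, -0.63 to 0.04). Serping1 was past 2-fold lower in each comparison in both clusters, at -1.56, -1.29 and -1.16 and -2.12, -1.70 and -1.59. In cluster 12, however, C3, C4b and Cfb lay under the T cell level in every library, control included, and Serping1 in each treated library. The cells of cluster 12 had a median of 13023.5 UMIs, far above that of T cells. These levels were therefore neither told apart from background nor shown to be background. In cluster 0, C4b lay under the T cell level in control and combo, and Cfb in every library but combo.

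**Figure D5:**
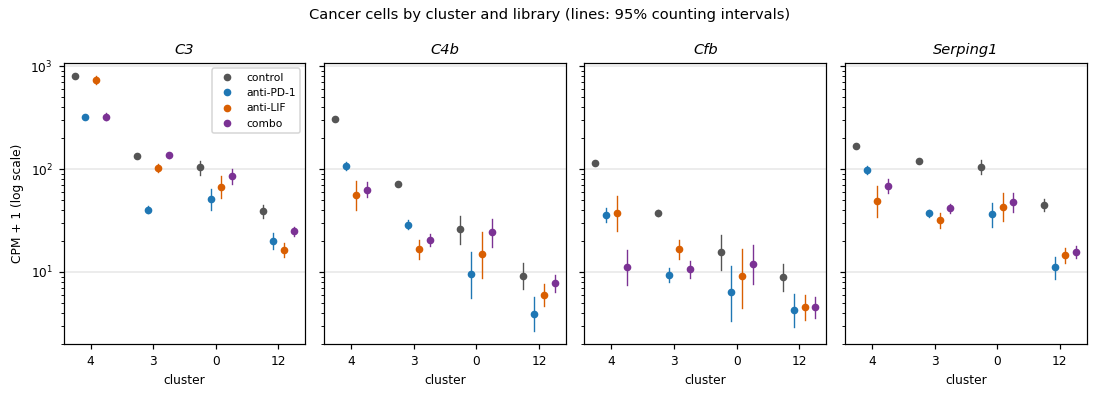
CPM + 1 (log axis) of C3, C4b, Cfb and Serping1 in cancer cells of clusters 4, 3, 0 and 12 by library, with 95% counting intervals. Cluster 4 held the highest C3 in each library, and in cluster 3 the control and combo points for C3 were level at 134 and 135 CPM.

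Markers of other cell types also differed between libraries in this class. The 9 fibroblast markers summed to 2523, 3074, 1876 and 1846 CPM in cancer cells, and none was at 0. The 10 T cell markers summed to 75.9, 22.4, 15.7 and 18.9 CPM, the 8 macrophage markers to 18.7, 62.03, 46.4 and 43.5, and the 8 neutrophil markers to 44.8, 91.7, 22.9 and 25.4 with Ly6g at 0 in anti-LIF and combo. The 10 cells with the most C3 held 4.0, 21.1, 36.5 and 28.8% of the C3 UMIs of cancer cells. The part of markers and depth in the gaps was not tested. Without the 10 top cells of each gene, and separately without cluster 4, all 4 genes were still 2-fold or more lower in all 3 comparisons. Over all alternatives the C3 log2 ratio in combo ranged from -2.47 to -1.04. Leaving out cluster 4 left the other clusters unequally shared between libraries. Within clusters 0, 3 and 12 the C3 ratio in combo was under 2-fold.

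Lists of induced genes were read beside the complement genes. Of 15 genes induced by interferon gamma, 4, 15 and 15 were 2-fold or more lower than control in cancer cells, with median log2 ratios of -0.77, -2.15 and -2.54 against 0.18, 0.20 and 0.19 for all genes. Of all genes 4.45, 8.35 and 7.88% were lower and 8.13, 11.5 and 9.31% higher. Gbp2, a guanylate-binding protein, stood at 1237, 541, 182 and 158 CPM. Of 10 NF-kB and acute-phase genes 3, 4 and 4 were lower and 1, 1 and 1 higher, with medians of -0.23, -0.59 and -0.45. Il6, a cytokine of the acute phase, stood at 74.01, 11.5, 4.47 and 3.33 CPM, while Saa3, an acute-phase protein, was the gene that was higher, at 0.20, 1.22, 0.68 and 0.83 CPM. Of 8 dissociation stress genes 1, 0 and 1 were lower, with medians of 0.11, -0.10 and -0.02.

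In macrophages, 1, 8 and 10 of the 15 interferon genes were 2-fold or more lower, with medians of -0.54, -1.05 and -1.28, where 6.22, 8 and 8.67% of all genes were. The C1q chains were level and C5ar1 higher in the same cells. In fibroblasts 5, 5 and 6 of the 15 were lower, with medians of -0.76, -0.64 and -0.80, where 5.17, 8.16 and 7.8% of all genes were. Of the 10 NF-kB and acute-phase genes 2, 0 and 0 were higher in fibroblasts and 0, 0 and 0 lower, with medians of -0.13, 0.27 and 0.12. Of all genes 5.75, 7.59 and 8.07% were higher. Il6 had the same highest library as C3 but was lowest in control, at 252, 262, 381 and 462 CPM. Saa3 was lowest in combo, at 70.7, 213.9, 108.6 and 54.5 CPM.

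Macrophages carried less C3, C4b and Cfb than fibroblasts. C3 stood at 379, 276, 431 and 321 CPM, C4b at 139, 151, 142 and 166 and Cfb at 148, 133, 206 and 155, with no ratio to control at 2-fold. In control 10 cells held 39.97% of the C3 UMIs. C4b and Cfb were highest in cluster 14 among clusters 5, 7, 8 and 14, at 557 and 480.1 CPM over all libraries, against 126 and 120.2 in cluster 5. Control had 7 cells in cluster 14, so this rests on the treated libraries. Serping1 was at 14.8 to 31.95 CPM in macrophages, near the 18.7 to 42.8 of T cells.

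In endothelial cells Serping1 stood at 462, 167, 201 and 232 CPM, highest in control by 2.76, 2.30 and 1.99-fold, but 10 of the 200 control cells held 44.1% of its UMIs. Cfb was at 188, 158, 165 and 127 CPM there, and C3 at 29.5, 27.8, 48.2 and 115 CPM, highest in combo. T cells held C3 at 22.6 to 79.3 CPM, and endothelial C3 was under their level in control and anti-LIF. The 9 fibroblast markers summed to 801, 1238, 1095 and 1873 CPM in endothelial cells, also highest in combo. Their part in the C3 level was not tested.

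Of 42 further complement genes listed by role, 13 reached 50 CPM in 1 class in all 4 libraries. C1s1 and C1ra, the proteases attached to C1q, were highest in fibroblasts, at 844 to 1233 and 453 to 721 CPM, and so were C2, at 124 to 141 CPM, and the collectin Colec12, at 131 to 191. Properdin (Cfp), which stabilises the alternative convertase, was highest in type 2 dendritic cells, at 1045 to 1631 CPM. Of the regulators, Clu and Cr1l had their highest median level in endothelial cells, at 332 to 517 and 136 to 154 CPM. They were not confined to that class by this measure, and their UMIs were not shared out by class. Clu also stood at 27.3 to 87.4 CPM in cancer cells and 75.7 to 121 in fibroblasts. Cd55 had its highest median level in mast cells. Among classes with 50 CPM or more in all 4 libraries it was highest in B cells, at 59.7 to 172 CPM.

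Among receptors, the integrin chain Itgam stood at 1056 to 1824 CPM in neutrophils, Itgax at 339 to 509 in type 2 dendritic cells and Itgb2 at 766 to 1053 in monocytes. Cd93 stood at 825 to 941 CPM in endothelial cells. None of the 7 terminal pathway genes reached 50 CPM in any class in all 4 libraries.

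In cancer cells 21 of these 42 genes were measured. Of them 5, 6 and 7 were 2-fold or more lower than control and 4, 6 and 5 higher, with medians of 0.09, -0.07 and 0.05, where 4.45, 8.35 and 7.88% of all genes were lower and 8.13, 11.5 and 9.31% higher. C1ra, C1s1 and C4bp were among those lower in all 3 comparisons, and Fcna, Cfp, Itgam and Cd93 higher. Of these 4, Cfp stood at 3.36, 11.2, 11.9 and 11.3 CPM, Itgam at 3.22, 16.3, 12.2 and 11.4 and Cd93 at 0.67, 2.29, 1.92 and 3.30 in cancer cells. Each was below T cells in every library (9.95, 24.5, 24.2 and 35.4 for Cfp, 13.99, 43.99, 35.4 and 37.4 for Itgam, 5.18, 7.78, 5.59 and 6.62 for Cd93). Cfp, Itgam and Cd93 were thus not told apart from background in the deeper cancer cells. Fcna was under 1 CPM in both classes. Of the lower genes, C1ra stood at 53.4, 19.2, 8.51 and 8.51 CPM in cancer cells, in combo under the 9.34 of T cells. C1s1 stood at 82.0, 17.4, 7.70 and 5.29 CPM, in anti-LIF and combo under the T cell levels of 9.94 and 10.9. C4bp stood at only 1.49, 0.35, 0 and 0.22 CPM. In macrophages 5, 8 and 6 of 19, 20 and 19 measured genes were higher and 4, 2 and 3 lower, with medians of 0.36, 0.54 and 0.53, where 7.93, 10.4 and 10.6% of all genes were higher and 6.22, 8 and 8.67% lower. Cfp, Fcna, C6, Vsig4 and Cd93 were higher in all 3 comparisons, and C1s1 and Masp1 lower. Cfp, Fcna, C6 and Cd93 lay above T cells in every library, while Vsig4 stood at only 0, 2.98, 5.82 and 3.02 CPM. C1s1 stood at 29.5, 4.11, 8.15 and 7.01 CPM, under T cells (15.9, 6.62, 9.94 and 10.9) in each treated library. Masp1 stood at 16.4 CPM in control and at 2.33 and 2.28 in anti-LIF and combo, there under T cells (3.73 and 3.89). The sizes of the C1s1 and Masp1 ratios are therefore uncertain. In fibroblasts 2, 4 and 6 of 24, 25 and 27 were higher and 2, 2 and 1 lower, with medians of -0.22, 0.02 and 0.17, where 5.75, 7.59 and 8.07% of all genes were higher and 5.17, 8.16 and 7.8% lower. Itgam was higher in all 3 comparisons and Cfi lower. Itgam stood at 9.52, 23.5, 22.9 and 22.3 CPM in fibroblasts, below T cells in every library, and was not told apart from background. Cfi stood at 15.1, 5.79, 6.67 and 4.85 CPM.

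Genes with the most similar pattern were sought over 44 sums of a class in a library, among 10965 genes, by Pearson's r of log2(CPM + 1). The sums share libraries, depths and gates, so r describes likeness only. C1qb was most like C1qc (r = 0.98) and C1qa (0.96), and among other genes Ly86, Mrc1, Adgre1 and Apoe (0.95 to 0.93), of which Mrc1 and Adgre1 were class markers. C1qa was most like Ly86, Kcnk13, Apoe and Adgre1, and C1qc like Apoe, Ly86, Adgre1 and Fcrls. C3ar1 was most like Msr1, Mrc1, Clec4a1 and Fcgr1 (0.93 to 0.90), of which Mrc1 and Fcgr1 were class markers, and C5ar1 like Arl11, Clec4d, Igsf6 and Clec5a (0.96 to 0.94).

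C3 was most like Mgst1, Gsn, Tnfaip6 and Cxcl1 (0.86 to 0.78), C4b like Lpar1, C1ra and Epb41l3 (0.86 to 0.83), and Cfb like Cd302, Cxcl1 and Sash1 (0.86 to 0.83). Serping1 was most like Mfap5, Ccn3, Fbln2 and Rarres2 (each 0.93). Between members, C3 and C4b had an r of 0.73, C3 and Serping1 0.59, C3 and C1qb 0.13, C3ar1 and C1qb 0.92, and C3ar1 and C5ar1 0.62.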

How the data were processed

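Single-cell RNA of 4 libraries was captured with the SeekOne MM 3' kit, per the labels. The authors deposited raw UMI counts, as whole numbers for each gene and barcode and without normalization, and lists of barcodes and genes. The submitters' processing notes name mm10 and Seurat 4.0.3. How reads were aligned and counted is not given in the sources used here. The deposited totals were 57720774 to 111164731 UMIs a library. Barcodes were kept from 200 genes upward and up to 20% mitochondrial UMIs. A cell entered a class when its marker score reached 0.5 of the score of the strongest cluster of that class, with 2 or more markers and a runner-up at most 0.7 as high. Cancer cells needed 2 of Krt8, Krt18, Krt7 and Msln and no UMI of Epcam, Cldn4 or Cldn7. In addition, no host class with 2 or more markers could reach 0.5 of the score of its strongest cluster. These thresholds, and extra conditions for monocytes, were set after the data were seen. Cells near a threshold numbered 5966. No doublet caller was run, and doublets may remain.

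The members and lists were chosen with earlier results of these data known, and the host gland list came from an earlier account of them. CPM were computed from UMIs summed by class and library. Ratios add 0.5 counts to each sum and need 10 UMIs, and were tested on simulated data. Named genes were the 9 members, further complement genes at 50 CPM or more in 1 class of all 4 libraries, the 4 genes most like each member, and up to 4 of each induced list, and 1 gene that this rule names is not reported here. Genes beyond this rule (C4bp, Fcna, C6, Vsig4, Masp1 and Cfi) were named after their values were seen, being the ones past 2-fold in all 3 comparisons. Clusters came from Leiden at resolution 1 (scanpy 1.11.5, leidenalg 0.10.2), without complement genes. With 1 library a group no test was run. Alternatives were cluster-based classes, a stricter gate, 10% mitochondrial UMIs, cell means, median subtraction, totals without mitochondrial and ribosomal protein genes, 1 added count, no top 10 cells, a minimum of 50 UMIs, and thinning.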

Additional observations from a re-analysis of the deposited data

How the results depend on the processing

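No paired analysis was possible because each group is 1 library, and for the same reason no replicate could be left out. Of 56 ratios in macrophages, fibroblasts and cancer cells, all 17 past 2-fold kept their sign under every alternative run, and 24 of the 39 others did. In cancer cells the count of 4 lower genes held in all 3 comparisons under every alternative run, including those chosen after seeing the data (without cluster 4, and without clusters 23 and 26). In macrophages the count of 1 higher gene in anti-PD-1 became 0 with cluster-based classes, at most 10% mitochondrial UMIs, cell means, the median subtracted, totals without mitochondrial and ribosomal protein UMIs or cluster 5 only (chosen after seeing the data), and 2 without the 10 top cells. In anti-LIF it became 2 with cell means or cluster 5 only, and 3 without the 10 top cells. In combo it became 2 with cluster-based classes or cell means, and 3 without the 10 top cells or with cluster 5 only. In fibroblasts the count of 2 in anti-PD-1 became 5 with cluster-based classes, 4 at 10% mitochondrial UMIs, and 6 with cell means or without the 10 top cells. The count of 1 in anti-LIF became 2 with cluster-based classes, 5 with cell means or without the 10 top cells, and 0 without cluster 4 (chosen after seeing the data). The count of 2 in combo became 1 with cluster-based classes or without cluster 4, and 5 with cell means or without the 10 top cells. The cause was not tested. The 337 control macrophages limit the macrophage ratios.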

Other observations

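Complement genes were also counted over all cells of 2 further clusters. Cluster 22, whose leading genes include Siglecf, Ccr3, Prg2 and Alox15, known from eosinophils, held C3ar1 at 248 CPM (202 to 302) and C5ar1 at 196 CPM (155 to 244) over its 471 cells, with 95% counting intervals. Of these cells 314 were in combo and 2 in control. In the treated libraries C3ar1 stood at 108, 171 and 295 CPM and C5ar1 at 144, 114 and 232 in the order anti-PD-1, anti-LIF, combo. Without combo the levels over the cluster were 154 CPM for C3ar1 and 125 for C5ar1. Cluster 22 also held C1qb at 994 CPM, and its median depth was 672 UMIs. Cluster 29, part of which is in the neutrophil class, held C3 at 1008 CPM (936 to 1083) and C5ar1 at 501 CPM (451 to 555) over 209 cells. None of these was in control and 156 were in anti-PD-1. C3 in cluster 29 stood at 981, 1016 and 1261 CPM in the treated libraries in the order anti-PD-1, anti-LIF, combo.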
